A study of Mus musculus with 6 samples.

Results

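Histone genes were followed in poly(A)-selected RNA libraries from mouse samples labelled as megakaryocytes, with the genotype Abcc4-/- or WT. Abcc4 encodes an ATP-binding cassette transporter that exports cyclic nucleotides, nucleotide analogue drugs and other organic anions. The histone genes are the protein-coding genes whose symbols begin with Hist1h to Hist4h, H1f, H2af or H3f, and they number 82 of the 55573 genes in the deposited table. Of these, 67 carry a Hist symbol and are called cluster genes below, and 15 carry an H1f, H2af or H3f symbol and are called variant genes. They were picked by symbol and biotype, with earlier results of these data known. There were 3 Abcc4-/- and 3 WT samples, and their titles add the letters BM and CD41. The labels give neither strain, sex, age nor the part of Abcc4 that is deleted, and name no treatment. Whether each library had its own animal is not stated, and a p-value here reflects only how much libraries of 1 genotype differed, whatever the source of that difference.

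A core histone octamer holds pairs of H2A, H2B, H3 and H4, and the linker histone H1 binds where DNA enters and leaves it. Most of this protein is made in S phase from replication-dependent genes that lie in clusters, usually lack introns and give mRNAs that end in a short stem-loop in place of a poly(A) tail. The stem-loop binding protein SLBP holds that stem-loop during processing, translation and decay. Replication-independent variants such as H3.3, H2A.Z and macroH2A come from genes outside the clusters, many of them with introns, and their mRNAs are polyadenylated like most others. Cluster genes can also give polyadenylated mRNAs, which is known from cells that are differentiating or have left the cell cycle. A library kit that captures poly(A) tails therefore does not measure the stem-loop mRNAs in proportion to their amount, and the levels below are levels in poly(A)-selected RNA.

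Values are expected read counts as the authors deposited them, given here as CPM, in which counts are scaled to a common normalised library size, and as TPM, which is also per transcript length. Expected counts summed to between 67009967 and 99294510 in Abcc4-/- libraries and to between 50440283 and 55123551 in WT libraries. Abcc4 stood at 60.1, 60.5 and 62.3 CPM in Abcc4-/- libraries, against 74.2, 71.8 and 75.7 CPM in WT libraries. Its log2 fold change was −0.28 ± 0.05 (SE; edgeR quasi-likelihood test, Benjamini-Hochberg adjusted p = 0.0026), so most of its reads remained, and a gene total cannot show whether a deleted part is missing. Of 16493 genes tested, 1432 were called lower and 1420 higher in Abcc4-/- samples at an adjusted p below 0.05. On a log2(TPM + 1) scale the same samples gave 1399 lower and 563 higher genes, around a median of −0.06 in place of 0.00.

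The stem-loop was looked for in the annotated transcripts of every histone gene, as 16 bases with a stem of 6 base pairs and a loop of 4 bases. With N for any base, the 5′ side of the stem had to read GGNNNT and the loop TNTN. All 6 base pairs had to match. A whole match was present in 46 of 67 cluster genes and in 1 of 15 variant genes. Among all protein-coding genes it was present in 69 of 21866 (0.316%). Sequence past an annotated transcript end was not searched, so a gene without a match may still carry the element there. Some genes without a match have short transcripts, with 393 bases for Hist1h2ai and 312 for Hist1h4k. The form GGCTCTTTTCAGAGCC was found in 26 histone genes, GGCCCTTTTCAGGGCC in 7 and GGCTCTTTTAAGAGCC in 6. The examples are the genes that the results below turn on, written 5′ to 3′ from GENCODE transcripts of the GRCm38 build, with the stem-loop in capitals and 5 bases on either side.
Hist1h1c, chr13:23739507-23739532, plus strand: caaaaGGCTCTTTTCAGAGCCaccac
Hist1h1d, chr13:23555782-23555807, plus strand: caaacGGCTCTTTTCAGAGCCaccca
Hist3h2a, chr11:58955167-58955192, plus strand: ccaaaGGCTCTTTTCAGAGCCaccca
Hist1h2ac, chr13:23683472-23683497, minus strand: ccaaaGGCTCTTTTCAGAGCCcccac
Hist1h2bb, chr13:23747198-23747223, plus strand: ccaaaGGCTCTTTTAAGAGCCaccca
Hist1h3d, chr13:23576239-23576264, plus strand: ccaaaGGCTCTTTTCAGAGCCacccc
Hist1h4i, chr13:22040961-22040986, minus strand: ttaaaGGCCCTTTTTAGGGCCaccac
Hist4h4, chr6:136803993-136804018, minus strand: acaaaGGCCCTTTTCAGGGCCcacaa
H2afx, chr9:44335235-44335260, plus strand: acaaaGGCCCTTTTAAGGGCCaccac
H2afx, the gene of the variant that is phosphorylated at DNA breaks, was the only variant gene in which the element was found, and the annotated transcript runs 822 bases past it. In Hist1h1c, Hist1h1d and Hist3h2a the transcript runs 840, 4884 and 1643 bases past the stem-loop, whereas in Hist1h2bb it ends 23 bases after it. Of the cluster genes, 62 have a single exon and 5 have more, and the variant genes divide into 7 and 8.

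Cluster genes were lower in Abcc4-/- libraries as a group, and variant genes changed less and unevenly. The summed level of all 67 cluster genes was 300.3, 275 and 281 CPM in Abcc4-/- libraries, against 618, 536 and 497 CPM in WT libraries. The groups did not overlap, and the ratio of means was 0.519, or −0.95 on the log2 scale. In TPM the sums were 476, 472 and 483 in Abcc4-/- libraries, against 987, 875 and 850 in WT libraries. The 15 variant genes summed to 4227, 3988 and 3910 CPM in Abcc4-/- libraries and to 4705, 4575 and 4374 CPM in WT libraries, a ratio of 0.888. The means of these sums were 4042 CPM in Abcc4-/- and 4551 CPM in WT libraries. H3f3b alone averaged 992 CPM in Abcc4-/- and 1525 CPM in WT libraries. That drop is larger than the drop of the whole variant sum, so in CPM the other variant genes together did not fall. In TPM H3f3b made up only a part of the drop of the variant sum. Cluster genes thus made up 6.60% ± 0.127 of all histone CPM in Abcc4-/- libraries and 10.8% ± 0.745 in WT libraries (SD, n = 3 each). In bulk RNA, fewer cells of a type and less RNA per cell cannot be told apart.

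**Figure D1:**
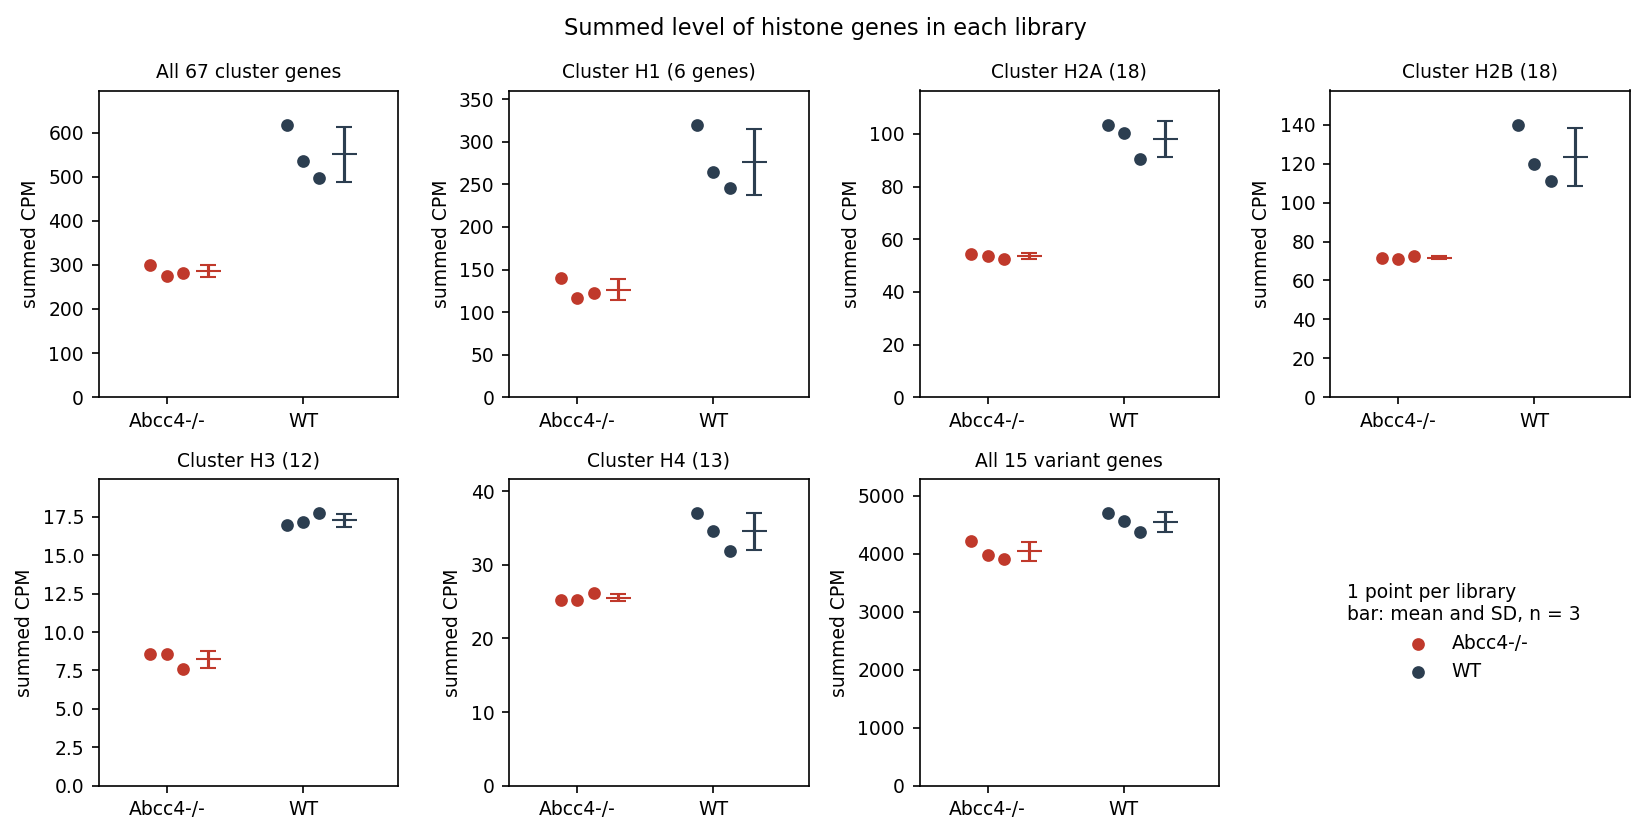
Summed CPM of the cluster genes, of each cluster family and of the variant genes in each library, with Abcc4-/- left of WT; points are libraries and bars give the mean and SD (n = 3). All 3 Abcc4-/- libraries lie below all 3 WT libraries in every panel, with sums of 275 to 300.3 CPM against 497 to 618 CPM for all cluster genes.

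Gene by gene, 60 of the 67 cluster genes passed the filter on low counts, and 37 of those 60 fell, while 0 rose. The share of all genes called lower was 8.68%, and called higher 8.61%. The median log2 fold change of the 60 was −0.76, with a range of −1.61 to 0.44, beside a median of 0.00 over all genes tested, of which 3.58% lay at or below −0.76. In 45 of the 60 (75%) all 3 Abcc4-/- libraries lay below all 3 WT libraries, compared with 18.3% of all genes tested. No cluster gene had an unadjusted p below 0.05 with a fitted fold above 0, and DESeq2 and limma-voom also called 0 higher. Among the 10 variant genes that passed the filter, 5 fell and 0 rose, and their median log2 fold change was −0.22. Without Abcc4-/- replicate 3, WT replicate 1 or WT replicate 2, 3 variant genes were called. The 23 cluster genes that were not called include 19 with a fitted log2 fold change below 0, of which 8 had an unadjusted p below 0.05. The share of all genes with an unadjusted p below 0.05 was not taken, so such counts have no background beside them. The 12 histone genes left untested were Hist1h1t, Hist1h2aa, Hist1h2af, Hist1h2ao, Hist2h2ab, Hist1h2ba, Hist2h3c1, H1foo, H1fnt, H2afb1, H2afb2 and H2afb3, and 7 of these had no count in any library.

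**Figure D2:**
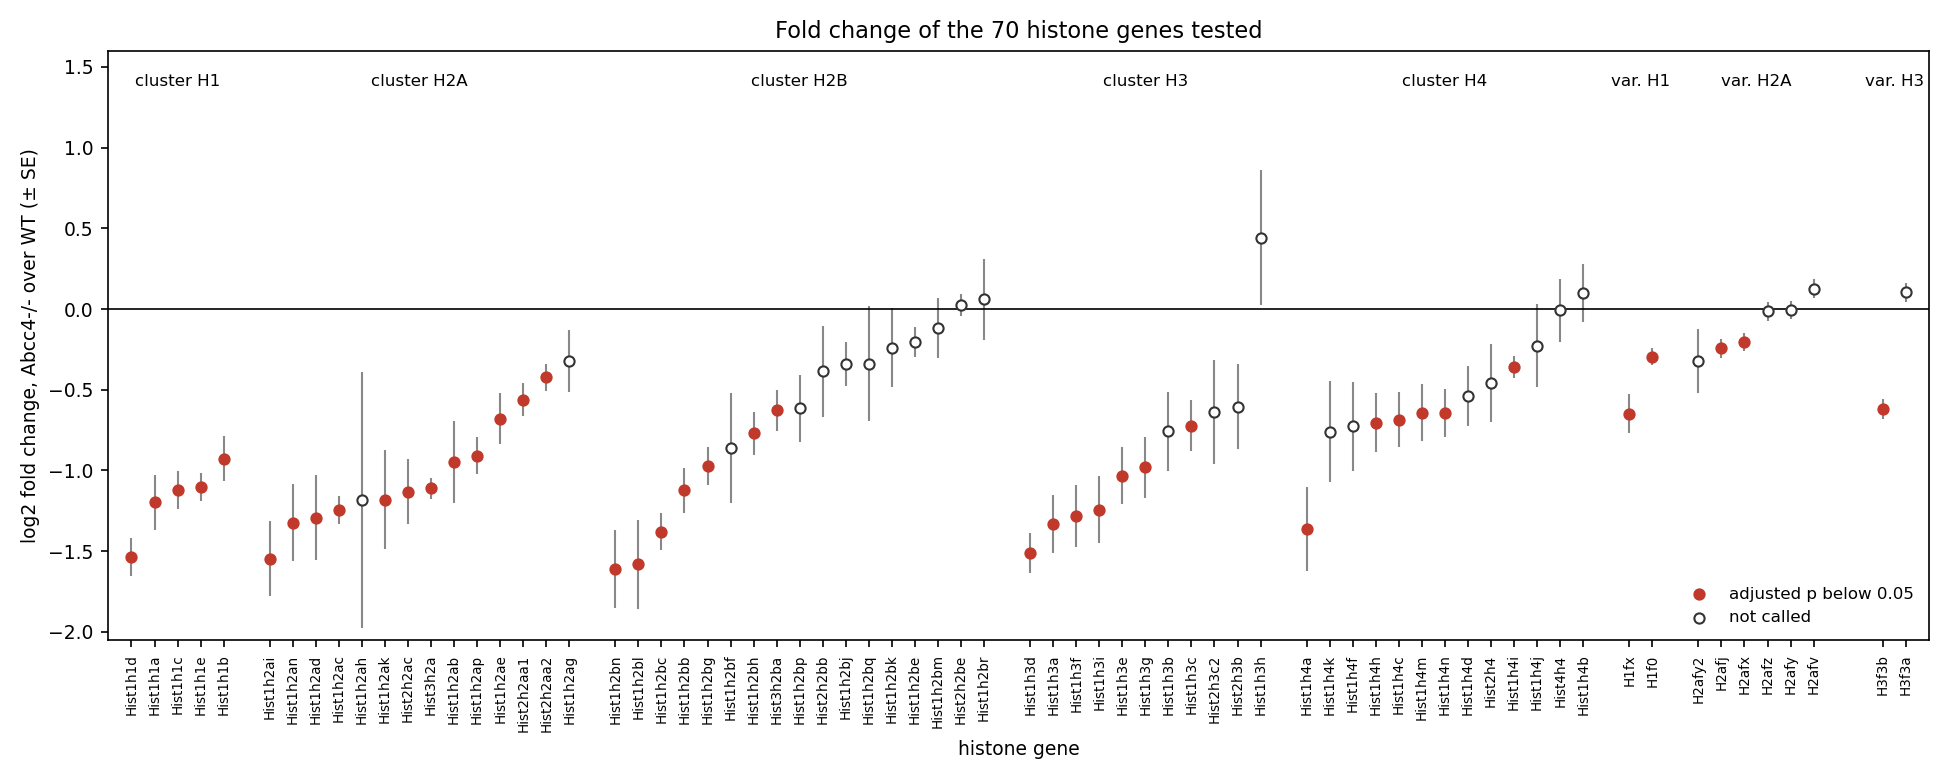
Log2 fold change of Abcc4-/- over WT with its SE (vertical axis) for each histone gene tested, ordered by class and family (horizontal axis); filled points have an adjusted p below 0.05. The 37 filled cluster points lie between −1.61 and −0.36, and the 5 filled variant points between −0.65 and −0.20.

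All 5 tested linker histone genes of the cluster fell. Hist1h1c, which encodes the H1.2 linker histone, had the highest level per length of any cluster gene, with a mean of 109.9 TPM in Abcc4-/- libraries and 252 TPM in WT libraries. It stood at 130.1, 107 and 112.6 CPM in Abcc4-/- libraries, against 296, 242 and 223 CPM in WT libraries. The highest Abcc4-/- library thus lay far below the lowest WT library, and the log2 fold change was −1.12 ± 0.12 (SE; edgeR adjusted p = 0.00113). Hist1h1c alone supplied 40.8% of the summed cluster CPM in Abcc4-/- libraries and 46% in WT libraries, so the summed level leans on it. Hist1h1d, the H1.3 gene, had 3.16, 2.73 and 2.79 CPM in Abcc4-/- libraries, against 9.62, 7.94 and 7.55 CPM in WT libraries. Its fall of 1.54 on the log2 scale (SE 0.12, edgeR adjusted p = 1.28e-05) was the steepest in the family. Hist1h1e fell by 1.10, Hist1h1a by 1.20 and Hist1h1b by 0.93 on the log2 scale, with edgeR adjusted p of 1.45e-05, 8.26e-04 and 0.00113. Summed over its 6 genes, the linker family stood at 0.457 of its WT level.

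H2A genes encode the core histone that forms a dimer with H2B, and 12 of 14 tested cluster genes of this family fell, with a median log2 fold change of −1.12. Hist3h2a lies outside the large cluster, on chromosome 11, and had 19.2, 17.1 and 17.1 CPM in Abcc4-/- libraries, against 41, 37.7 and 36.6 CPM in WT libraries. Libraries within a group differed little, and its log2 fold change of −1.11 ± 0.07 had the smallest adjusted p of all histone genes (SE; edgeR adjusted p = 3.20e-06). Its annotation overlaps Trim17 on the same strand, so reads of the shared stretch were divided by the authors' counting. Hist1h2ac had 6.73, 6.11 and 7.05 CPM in Abcc4-/- libraries, against 17.2, 15.5 and 14.4 CPM in WT libraries (log2 fold change −1.25 ± 0.09, SE; edgeR adjusted p = 6.89e-06). Hist2h2aa2 and Hist2h2aa1, neighbouring copies on chromosome 3, had the highest mean TPM in the family and fell by only 0.42 and 0.56 on the log2 scale, with edgeR adjusted p of 0.0066 and 0.00359. They are near-identical, with 0.0% and 11.7% of their 100-base windows found in no other gene, so the division of reads between them is uncertain. Hist2h2aa1 also overlaps the lncRNA gene Gm20634 on the same strand, which fell by 1.11, so reads of the shared stretch were divided as well. Hist1h2ap, next by TPM, fell by 0.91. The other called members were Hist1h2ai (−1.55), Hist1h2an (−1.32), Hist1h2ad (−1.29), Hist1h2ak (−1.18), Hist2h2ac (−1.13), Hist1h2ab (−0.95) and Hist1h2ae (−0.68), all as log2 fold changes. The call of Hist1h2ab was lost without any 1 library other than WT replicate 1 (edgeR adjusted p from 0.0595 to 0.0965). That of Hist1h2ae was lost without WT replicate 2 (0.0505) and with counts thinned to the smallest library (0.0698), and that of Hist1h2ak without Abcc4-/- replicate 2 (0.0961), WT replicate 1 (0.0842) or WT replicate 2 (0.0582). Hist1h2ag (−0.32) and Hist1h2ah (−1.18, SE 0.79) were not called. Their groups overlapped in CPM, while in TPM all 3 Abcc4-/- libraries lay below all 3 WT libraries for Hist1h2ah.

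For H2B, the partner of H2A, 7 of 17 tested cluster genes fell, and the median log2 fold change was −0.62. Hist1h2bc had 19.9, 19.2 and 20.9 CPM in Abcc4-/- libraries, against 62, 49.2 and 44.9 CPM in WT libraries. The Abcc4-/- libraries were close together and well below WT, with a log2 fold change of −1.38 ± 0.12 (SE; edgeR adjusted p = 2.86e-04). Hist1h2bg, first in the family by TPM, had 12.3, 12.3 and 11.3 CPM in Abcc4-/- libraries, against 27.5, 23.7 and 19.2 CPM in WT libraries (log2 fold change −0.97 ± 0.12, SE; edgeR adjusted p = 0.00124). Hist1h2bn (−1.61), Hist1h2bl (−1.58), Hist1h2bb (−1.12), Hist1h2bh (−0.77) and Hist3h2ba (−0.63) were also called lower. Hist1h2bn gave the largest fitted fall of all histone genes, with means of 2.30 TPM in Abcc4-/- libraries and 7.29 TPM in WT libraries.

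The other 10 tested H2B genes were not called, and of these Hist2h2be, Hist1h2be, Hist1h2br and Hist1h2bq are named here after their values were seen. Hist2h2be had 13.7, 14 and 13.1 CPM in Abcc4-/- libraries, against 13.7, 12.4 and 14 CPM in WT libraries. The groups overlapped, and the log2 fold change was 0.02 ± 0.07 (SE; edgeR adjusted p = 0.857), near 0 on both scales, with a negative sign (−0.05) on log2(TPM + 1). Every 100-base window of its annotated transcript is unique, and that transcript holds no whole stem-loop and ends with a poly(A) signal. Hist1h2be had 4.71, 4.88 and 5.01 CPM in Abcc4-/- libraries, against 5.73, 5.24 and 5.86 CPM in WT libraries (log2 fold change −0.20 ± 0.09, SE; edgeR adjusted p = 0.168). Its groups did not overlap, with Abcc4-/- lower in CPM and in TPM. It shares a stretch of the same strand with Hist1h1e, which fell by 1.10. Hist1h2br and Hist1h2bq, both annotated with 3 exons, had log2 fold changes of 0.06 and −0.34 and were not called. Only 13.6% and 5.16% of their 100-base windows are found in no other gene, so the division of their reads is uncertain. Hist1h2br turned to −0.46 on log2(TPM + 1).

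H3 cluster genes carried few reads, with a family sum of 8.55, 8.56 and 7.58 CPM in Abcc4-/- libraries, against 17, 17.1 and 17.7 CPM in WT libraries. These sums did not overlap, and 7 of 11 tested genes fell, with a median log2 fold change of −0.98. Hist1h3d had 1.55, 1.52 and 1.53 CPM in Abcc4-/- libraries, against 4.22, 4.09 and 4.74 CPM in WT libraries (log2 fold change −1.51 ± 0.12, SE; edgeR adjusted p = 1.94e-05). The others called were Hist1h3a (−1.33), Hist1h3f (−1.28), Hist1h3i (−1.24), Hist1h3e (−1.03), Hist1h3g (−0.98) and Hist1h3c (−0.72). Hist1h3h, named after its values were seen, had the highest fitted log2 fold change of any histone gene (0.44, SE 0.42), and its groups of 0.206, 0.249 and 0.217 CPM in Abcc4-/- libraries and 0.133, 0.303 and 0.0906 CPM in WT libraries overlapped.

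H4 genes, which encode the least varied of the core histones, had the smallest summed change. Their sum was 25.3, 25.3 and 26.1 CPM in Abcc4-/- libraries, against 37, 34.6 and 32 CPM in WT libraries, a ratio of 0.740. Of 13 tested genes, 6 fell. Hist1h4i, first in the family by TPM, had 15.9, 14.7 and 15.1 CPM in Abcc4-/- libraries, against 20.6, 19.9 and 18 CPM in WT libraries (log2 fold change −0.36 ± 0.07, SE; edgeR adjusted p = 0.00418). Every Abcc4-/- library lay below every WT library, and the fall was smaller than that of any other called cluster gene. Hist1h4a fell by 1.36, Hist1h4h by 0.70, Hist1h4c by 0.69, and Hist1h4m and Hist1h4n by 0.64 each on the log2 scale. The call of Hist1h4c was lost without Abcc4-/- replicate 1 (edgeR adjusted p = 0.0698), Abcc4-/- replicate 2 (0.0552) or WT replicate 2 (0.0679). That of Hist1h4h was lost without Abcc4-/- replicate 1 or 2 or WT replicate 1 or 2 (0.0649 to 0.0799) and with counts thinned to the smallest library (0.0541), and that of Hist1h4m without Abcc4-/- replicate 1 or 2 or WT replicate 1 or 3 (0.059 to 0.112). Hist4h4, on chromosome 6 and named after its values were seen, had 0.890, 1.15 and 1.09 CPM in Abcc4-/- libraries, against 1.22, 1.08 and 0.864 CPM in WT libraries, and its groups overlapped.

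Family sums placed H1 at 0.457, H3 at 0.476, H2A at 0.546, H2B at 0.580 and H4 at 0.740 of WT in CPM. In TPM H2B stood at 0.513 and H2A at 0.590 of WT, so the order of these families depends on the scale. No test of the differences between families was run. The median fold was much the same in each band of expression, though single genes within a band differed, and no test between bands was run. Among cluster genes with a mean of at least 10 TPM, 11 of 12 were called and the median log2 fold change was −0.78. From 3 to 10 TPM 20 of 31 were called with a median of −0.73, and under 3 TPM 6 of 17 with a median of −0.76. The median SE was 0.117, 0.187 and 0.255 in these bands, and the share called was lower where the error was larger.

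Variant genes were more abundant than cluster genes, and H3f3a and H3f3b led them. Both encode the same histone protein, the replication-independent variant H3.3, but H3f3b fell and H3f3a was not called. H3f3b had 1051, 952 and 974 CPM in Abcc4-/- libraries, against 1615, 1486 and 1474 CPM in WT libraries. The groups lay far apart, and the log2 fold change was −0.62 ± 0.06 (SE; edgeR adjusted p = 9.06e-05). H3f3a had 1315, 1261 and 1210 CPM in Abcc4-/- libraries, against 1207, 1183 and 1135 CPM in WT libraries, a log2 fold change of 0.10 ± 0.06 (SE; edgeR adjusted p = 0.259). All 3 Abcc4-/- libraries were above all 3 WT libraries in CPM, but the groups overlapped in TPM, where means were 2191 in Abcc4-/- libraries and 2195 in WT libraries. H3f3b supplied 44.0% ± 0.865 of the CPM of this pair in Abcc4-/- libraries and 56.5% ± 0.783 in WT libraries (SD, n = 3 each), and these shares did not overlap.

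**Figure D3:**
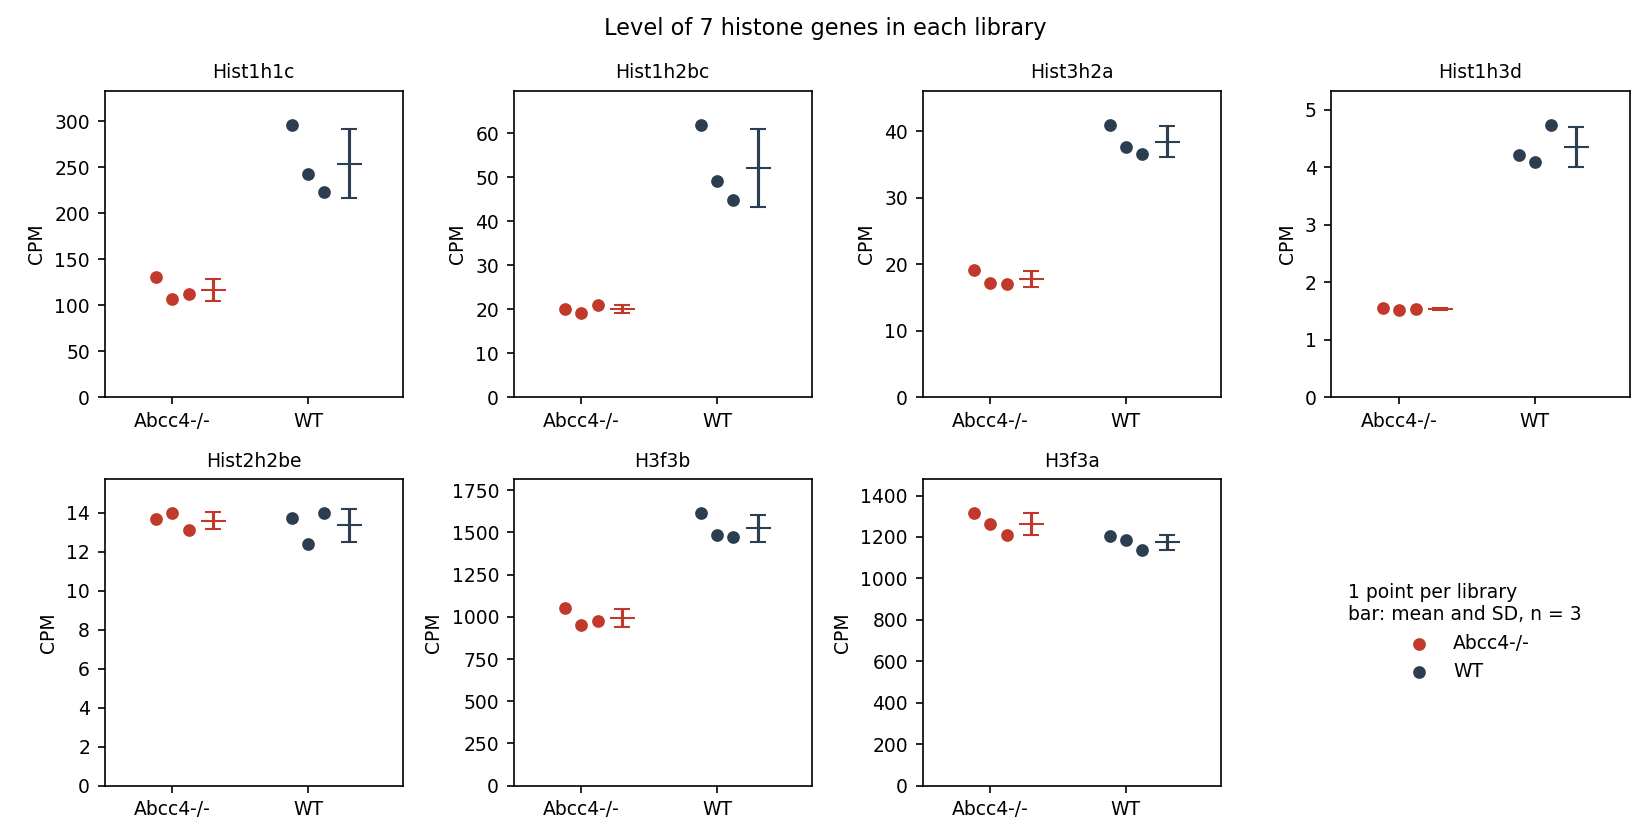
CPM of 5 cluster genes and of H3f3b and H3f3a in each library, with Abcc4-/- left of WT; points are libraries and bars give the mean and SD (n = 3). Hist1h1c, Hist1h2bc, Hist3h2a, Hist1h3d and H3f3b separate the groups with Abcc4-/- lower, Hist2h2be overlaps, and H3f3a is at 1210 to 1315 CPM in Abcc4-/- libraries against 1135 to 1207 CPM in WT libraries.

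Both tested linker variants fell. H1f0, the linker histone that accumulates in non-dividing cells, had 97.6, 90.7 and 90.5 CPM in Abcc4-/- libraries, against 111.7, 118 and 112.5 CPM in WT libraries (log2 fold change −0.30 ± 0.05, SE; edgeR adjusted p = 0.0028). H1fx had 3.88, 4.97 and 4.31 CPM in Abcc4-/- libraries, against 6.68, 7.84 and 6.17 CPM in WT libraries, and fell by 0.65 on the log2 scale (SE 0.12, edgeR adjusted p = 0.00444). Neither gene's groups overlapped.

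Of the H2A variants, 2 of 6 tested genes were called, and by small amounts. H2afx had 209, 194 and 186 CPM in Abcc4-/- libraries, against 229, 233 and 216 CPM in WT libraries (log2 fold change −0.20 ± 0.06, SE; edgeR adjusted p = 0.0313). H2afj, the gene of H2A.J, had 50.1, 52.1 and 49 CPM in Abcc4-/- libraries, against 61.4, 63 and 54.8 CPM in WT libraries (log2 fold change −0.24 ± 0.06, SE; edgeR adjusted p = 0.0169). The groups did not overlap for either gene, but each call was lost in 4 of the 6 fits that left out 1 library. For H2afx these were the fits without Abcc4-/- replicate 2 or 3 or WT replicate 1 or 2 (edgeR adjusted p from 0.0868 to 0.124), and for H2afj those without Abcc4-/- replicate 1 or 3 or WT replicate 1 or 2 (0.0582 to 0.0651). H2afz, which encodes H2A.Z and had the highest TPM of the H2A variants, stood at 787, 726 and 726 CPM in Abcc4-/- libraries, against 763, 777 and 719.6 CPM in WT libraries. H2afy, the macroH2A1 gene, stood at 614, 612 and 584 CPM in Abcc4-/- libraries, against 626, 617 and 573 CPM in WT libraries. Both overlapped in CPM and had log2 fold changes of −0.01 (edgeR adjusted p = 0.916 and 0.965), while in TPM all 3 Abcc4-/- libraries lay below all 3 WT libraries. H2afv had a log2 fold change of 0.13 (edgeR adjusted p = 0.178) and H2afy2 one of −0.32 (edgeR adjusted p = 0.298), and the groups overlapped for each.

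The cluster genes were then grouped by how the GENCODE annotation ends their transcripts, since a poly(A) library sees only some of their ends. Where a gene had more than 1 transcript, the stem-loop with the most bases after it was used. In 23 cluster genes the transcript ends within 100 bases after the stem-loop, and 13 of the 22 tested fell, with a median log2 fold change of −0.71. In another 23 it runs over 100 bases past the stem-loop, and 15 of 21 tested fell, with a median of −0.77. In the 21 with no whole stem-loop in the transcript, 9 of 17 tested fell, with a median of −1.18. This kind can include genes whose annotated transcript stops before the stem-loop, as sequence past that end was not searched. The median of the last kind was thus the lowest, but its range of −1.61 to 0.44 covered those of both others, and no test between kinds was run. A poly(A) signal, AATAAA or ATTAAA, stood in the last 40 bases of at least 1 transcript of 17 cluster genes. Of these, 15 were tested and 7 fell, with a median of −0.46. The annotation marks ends known from any tissue, not the ends present in these libraries.

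**Figure D4:**
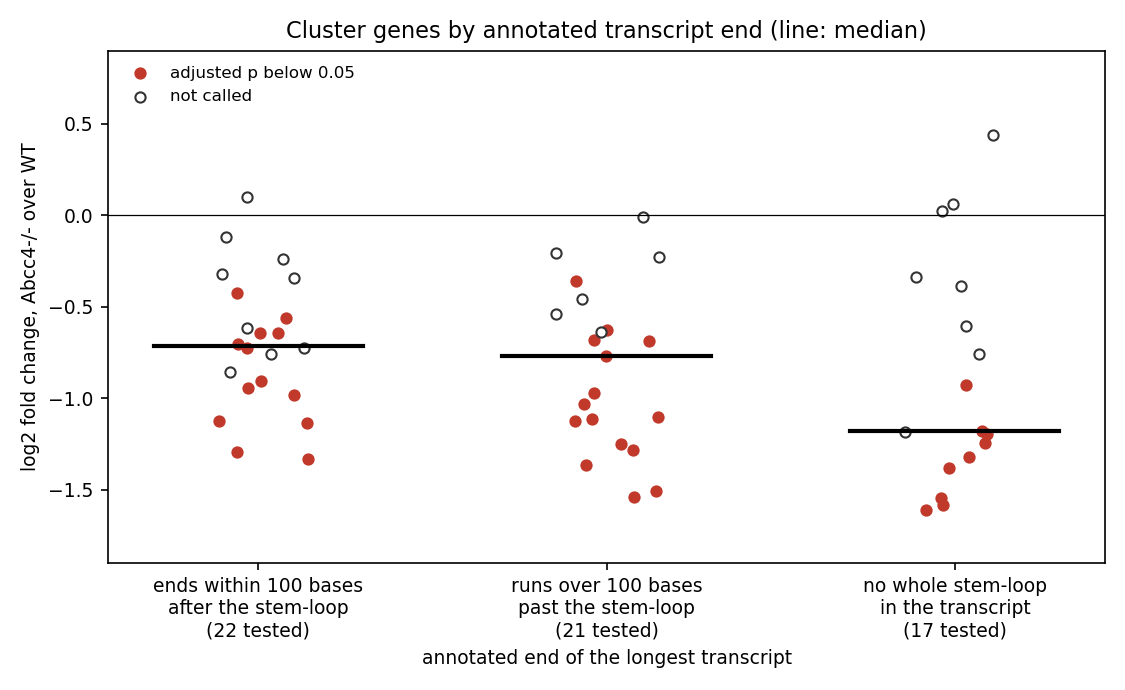
Log2 fold change of Abcc4-/- over WT (vertical axis) of cluster genes by annotated transcript end (horizontal axis). Points are genes, filled where the adjusted p was below 0.05, and lines are medians. The medians are −0.71, −0.77 and −1.18, and the points of the 3 kinds overlap.

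RNAs that carry no poly(A) tail were read from the same table, as a list chosen after the values were seen. Rn7sk, the RNA of the 7SK complex, had 8.48, 4.25 and 12.1 CPM in Abcc4-/- libraries, against 3.91, 7.04 and 14.3 CPM in WT libraries. The groups overlapped for it, for Rpph1, for snoRNA genes and for scaRNA genes. The snRNA genes summed to 2.95, 2.47 and 2.52 CPM in Abcc4-/- libraries, against 2.47, 2.41 and 2.46 CPM in WT libraries, which places all Abcc4-/- libraries marginally higher, though the groups overlapped in TPM. In none of these lists did all Abcc4-/- libraries lie below all WT libraries, and the part of untailed RNA in the cluster result was not tested.

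Near-identical copies limit what can be said of single cluster genes. Of the counts above 0, 88.2% were not whole numbers in cluster genes, 39.3% in variant genes and 19.2% in all genes tested, and a fraction marks reads that the authors' counting divided. At least 90% of the 100-base windows of the annotated transcripts were found in no other gene for 16 cluster genes. Of these, 13 were tested and 8 fell, with a median log2 fold change of −0.77, and their summed level had a log2 ratio of −1.03. Among the 25 cluster genes with under 50% unique windows, 12 of 22 tested fell, with a median of −0.70.

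By position, 49 of the tested cluster genes lie on chromosome 13, between 21715763 and 23934851 of GRCm38, and 32 of them fell, with a median log2 fold change of −0.91. On chromosome 3, 3 of 8 fell (median −0.51), both tested genes on chromosome 11 fell, and the single gene on chromosome 6 was not called. Of 12 head-to-head pairs of H2A and H2B genes with at most 400 bases between annotated starts, 10 had both genes tested. Both genes fell in 4 of these pairs, 1 gene fell in 4, and neither fell in 2. Hist1h2ac and Hist1h2bc, with 251 bases between starts, had log2 fold changes of −1.25 and −1.38. Hist2h2ac and Hist2h2be, with 239 bases between starts, had log2 fold changes of −1.13 and 0.02.

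The first of those pairs is shown by the 250 bases before the RefSeq start of Hist1h2ac (build GRCm38.p6), since both of its genes fell; capitals mark CCAAT, ATTTGCAT and TATAAA on either strand.
Hist1h2ac, chr13:23683960-23684209, minus strand: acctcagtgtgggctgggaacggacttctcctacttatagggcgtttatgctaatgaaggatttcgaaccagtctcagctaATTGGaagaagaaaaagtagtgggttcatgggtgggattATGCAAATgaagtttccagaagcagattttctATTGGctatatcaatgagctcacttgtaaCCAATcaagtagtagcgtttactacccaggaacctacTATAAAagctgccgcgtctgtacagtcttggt
RefSeq windows of 250 bases before to 50 after the start were matched for 76 of the 82 genes. Motifs were searched as exact letters on both strands and counted separately where they shared bases. TATAAA, the TATA box, was in 56.5% of 62 cluster windows, 7.14% of 14 variant windows and 15.7% of all 27025 genes with a window. CCAAT was in 85.5% of cluster windows, 71.4% of variant windows and 41.1% of all. It was in every H1, H2A, H2B and H3 cluster window and in 3 of 12 H4 windows. ATTTGCAT, the octamer bound by Oct-1, was in 7 of 18 H2A and 7 of 16 H2B cluster windows, in no H1, H3 or H4 cluster window, in 7.14% of variant windows and in 1.97% of all. TGACGTCA, the cyclic AMP response element, was in 6.45% of cluster windows, in no variant window and in 2.03% of all.

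Genes that make, process and place histones changed little beside the cluster genes. Of 15 genes for histone transcription and 3′ end processing, 0 were called by the edgeR quasi-likelihood test, and the median log2 fold change was 0.03. With an unadjusted p below 0.05 there were 3, all higher, and DESeq2 and limma-voom called 0. The share of all genes at that unadjusted threshold was not taken, so nothing is read from this count or its direction. Slbp, the stem-loop binding protein gene, averaged 131 ± 8.03 CPM in Abcc4-/- libraries and 117.7 ± 2.26 CPM in WT libraries (SD, n = 3 each), with a log2 fold change of 0.16 (edgeR adjusted p = 0.0734). Npat, the S phase coactivator of histone genes, averaged 30 ± 1.20 CPM in Abcc4-/- libraries and 29 ± 2.04 CPM in WT libraries (SD, n = 3 each; edgeR adjusted p = 0.671). Of 9 genes of histone mRNA decay, 1 was called: Dcp2, a decapping enzyme, with a log2 fold change of 0.20 (SE 0.06, edgeR adjusted p = 0.0433). It was not called by limma-voom or without Abcc4-/- replicate 2 or 3 or WT replicate 1 or 2 (edgeR adjusted p from 0.109 to 0.147), and its sign turned to −0.15 on log2(TPM + 1).

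Of 12 replication-coupled chaperones, 0 were called by edgeR, 4 had an unadjusted p below 0.05, all higher, and DESeq2 and limma-voom called 0. Here too the unadjusted counts stand without the share over all genes. Asf1a, which hands H3 and H4 to the assembly factors, had the smallest p, with a log2 fold change of 0.18 (edgeR adjusted p = 0.0659), and was called without WT replicate 2 (adjusted p = 0.0396). Of 18 genes for deposition of variant histones, including the H3.3 chaperones Hira and Daxx, 0 were called by edgeR, 2 had an unadjusted p below 0.05, 1 in each direction, and DESeq2 and limma-voom called 0. Cabin1, a subunit of the HIRA complex, had the smallest p, with a log2 fold change of −0.13 (edgeR adjusted p = 0.114).

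Histone mRNA follows S phase, so 22 S phase genes were set beside it. They summed to 4640, 4344 and 4420 CPM in Abcc4-/- libraries, against 4379, 4257 and 4536 CPM in WT libraries, and the groups overlapped. Ccne2, a cyclin of S phase entry, rose by 0.43 on the log2 scale (SE 0.07, edgeR adjusted p = 0.00149), Cdc6, a replication licensing factor, by 0.23 (SE 0.05, adjusted p = 0.0128), and Rrm2, the ribonucleotide reductase subunit, by 0.21 (SE 0.06, adjusted p = 0.027). The call of Rrm2 was lost without Abcc4-/- replicate 1 or 2 or WT replicate 2 or 3 (edgeR adjusted p from 0.058 to 0.0866). E2f8, a repressor of the E2F family named after its values were seen, fell by 0.20 (SE 0.06, edgeR adjusted p = 0.035), a call lost without any 1 library other than WT replicate 2 (adjusted p from 0.0507 to 0.129). The median of the 22 was 0.07. On log2(TPM + 1) the list had 0 genes higher and 2 lower, so the direction of its calls depends on the scale. Mki67, a marker of cycling cells, averaged 645 ± 44.5 CPM in Abcc4-/- libraries and 700.1 ± 103.7 CPM in WT libraries (SD, n = 3 each) and was not called. Cell cycle stage was not measured, and its part in the cluster result was not tested.

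**Figure D5:**
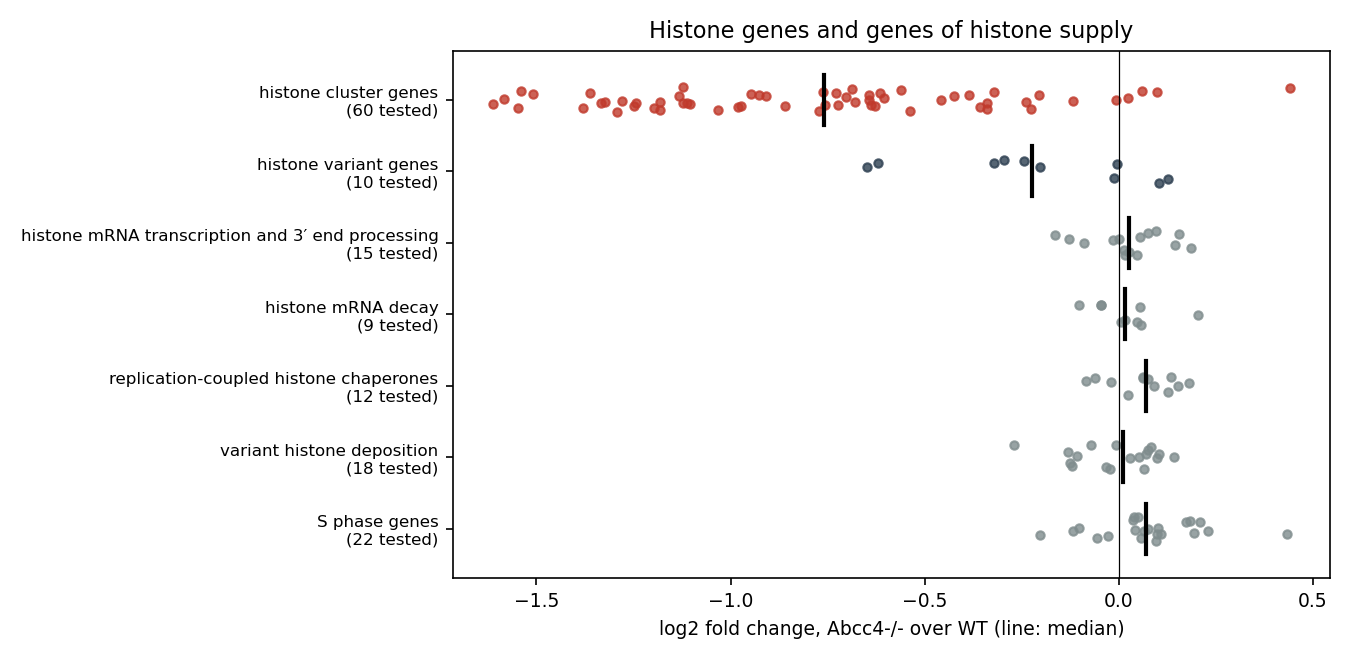
Log2 fold change of Abcc4-/- over WT (horizontal axis) for tested cluster genes, variant genes and the 5 lists of histone supply and S phase genes (rows); points are genes and lines are medians. The cluster genes have a median of −0.76 and the variant genes one of −0.22, while the medians of the 5 lists lie between 0.01 and 0.07.

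Markers of other blood cells moved with the groups as well. The 13 megakaryocyte markers summed to 202 to 241 CPM in Abcc4-/- libraries and to 293 to 350.3 CPM in WT libraries, with 9 called lower and 1 higher. The 15 neutrophil markers summed to 44428 to 46835 CPM in Abcc4-/- libraries and to 25539 to 32657 CPM in WT libraries, with 11 called higher and 1 lower, so neutrophil marker sums were far above megakaryocyte marker sums in every library, in CPM and in TPM, whatever the label. The 10 B lymphoid progenitor markers summed to 984 to 1080 CPM in Abcc4-/- libraries and to 505 to 725 CPM in WT libraries, with 7 higher. The 8 T cell markers summed to 67.4 to 86.2 CPM in Abcc4-/- libraries and to 44.6 to 51.9 CPM in WT libraries, with 7 higher. Sums of the 8 monocyte and macrophage markers and of the 9 erythroid markers overlapped between the groups, with 3 lower and 2 higher in turn. No marker was at 0 in any library, and the part of these cells in the histone result was not tested.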

How the data were processed

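RNA from 3 Abcc4-/- and 3 WT mouse samples was sequenced as paired-end reads from a stranded mRNA kit, per the labels' protocols. The submitters' processing notes name STAR 2.7, RSEM 1.3.1 and the mm10 build, and no source used here names their gene annotation. The authors deposited expected counts per gene, not normalized, and TPM, scaled within each library. The 92 spike-in entries were all at 0 and were left out.

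After rounding, the expected counts went into edgeR 4.0.16 under R 4.3.3, with TMM factors, the default low-count filter, the robust quasi-likelihood test on 16493 genes and Benjamini-Hochberg adjustment over all of them. CPM used the same library sizes. The test was checked on simulated data. DESeq2 1.42.0 and limma 3.58.1 were alternatives. Stem-loops, ends and 100-base windows came from GENCODE vM21 transcripts, whose identifiers matched all 82 genes. Promoters came from RefSeq.

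The members and the gene lists were chosen with earlier results of these data known. Named were all called members, the 3 members of each class and family with the highest mean TPM, up to 3 called genes of each list or its smallest p, and Slbp, Npat and Mki67. Zcchc11 and Zcchc6 stand for Tut4 and Tut7 in the decay list. The list of RNAs without a tail and the restriction to genes with unique windows were chosen after seeing the data.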

Additional observations from a re-analysis of the deposited data

How the results depend on the processing

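Cluster genes called lower numbered 37 in the reported test, and between 26 (with a mean of at least 1 CPM required, which leaves fewer genes) and 39 (log2(TPM + 0.1)) under the other normalisations, filters and tools; leaving out 1 library gave 32 to 37. None of these settings called a cluster or variant gene higher. Only genes with at least 90% unique windows gave 8 calls, from fewer genes. Variant genes called lower were 5 in every setting that kept all libraries and 3 to 5 when 1 library was left out. In all, 31 of the 37 cluster calls and 3 of the 5 variant calls held in every setting that tested the gene. Some of these cluster genes were not tested where a mean of at least 1 CPM was required. The log2 ratio of the summed level lay between −1.02 and −0.86 for cluster genes, between −0.20 and −0.15 for variant genes, and between −0.82 and −0.71 for cluster over variant genes when 1 library was left out. Without the gene of highest TPM in each class, Hist1h1c and H3f3a, these ratios were −0.81, −0.28 and −0.53. H3f3b was kept in that variant sum, and its drop in mean CPM was larger than that of the sum over all variant genes.

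Signs turned only in genes that were not called, apart from Dcp2. On log2(TPM + 1) and log2(TPM + 0.1) the values were −0.0025 and −0.0025 for H3f3a, −0.0457 and −0.0509 for Hist2h2be, −0.465 and −0.527 for Hist1h2br, −0.152 and −0.156 for Dcp2, and −0.0588 and −0.0660 for Npat. Without the filter H2afy was at 0.0019, and with limma-voom Hist4h4 was at 0.0072. Leaving out 1 library gave ranges of −0.0502 to 0.0107 for H2afz, −0.0410 to 0.0199 for H2afy, −0.0267 to 0.0592 for Hist2h2be, −0.101 to 0.400 for Hist1h2br, −0.422 to 0.0682 for Hist1h2bk, −0.133 to 0.111 for Hist4h4 and −0.182 to 0.0124 for Mki67. The cause was not tested.

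Replicate numbers come from the titles and are shared between the groups. Deviations of same-numbered libraries correlated at −0.012, 0.0014 and 0.09999, and not every library correlated best with its own number, so the numbers were not taken to pair the samples. A fit with the replicate block called 37 cluster genes and 5 variant genes lower, and in it Slbp passed the threshold (adjusted p = 0.0493). Depth limits the cluster genes under 3 TPM most, where the median SE was 0.255.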

Other observations

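Genes that lie among the cluster genes but are not among the 82 histone genes were read from the same fit. They include a histone pseudogene and lncRNA genes that lie over cluster genes. Of 14 such genes tested, 6 were called lower and 1 higher, beside 8.68% lower and 8.61% higher over all genes tested. On chromosome 13 the median log2 fold change was −0.91 for the tested cluster genes and 0.01 for the 9 tested neighbours. On chromosome 3 it was −0.51 for the tested cluster genes and −0.96 for the 4 tested neighbours. Over all 14 neighbours the median was −0.43. Abt1, a nuclear protein gene, fell by 0.52 on the log2 scale (SE 0.07, edgeR adjusted p = 4.03e-04), Zfp322a, a zinc finger gene, rose by 0.37 (SE 0.05, adjusted p = 0.00108), and Zfp184, Prss16 and Hfe were not called. The pseudogene Gm11336 fell by 1.299. On chromosome 3 the lncRNA genes Gm20632, Gm20633 and Gm20634 fell by 1.22, 0.81 and 1.11 on the log2 scale. Gm20634 overlaps Hist2h2aa1 and Hist2h3c1 on the same strand, and Gm20632 spans Hist2h2aa2 on the opposite strand. Hist3h2bb-ps, a histone pseudogene on chromosome 11, fell by 1.25. These genes were picked by position, and their values were seen before they were named.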
